A study of Homo sapiens with 14 samples.

Results

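Inhibition of ATR at 22 h was examined through 4 of the 14 RNA polymerase II (RNAPII) ChIP-seq libraries of the series, chosen by their labels. They are total RNAPII from cells given an ATR inhibitor (ATRi), total RNAPII from cells given the vehicle DMSO, Ser2-phosphorylated RNAPII from ATRi cells and Ser2-phosphorylated RNAPII from DMSO cells, with 1 library in each group. All came from BJ hTERT, a telomerase-immortalised line of human foreskin fibroblasts, so every result holds for a single line. The other libraries were ATRi and DMSO at 16 h and 19 h with each antibody, and a library per antibody at 14 h with no treatment named. The inhibitor, its dose, the event from which the hours count and any synchronisation are not given in the sources used here. The labels name an antibody against the N-terminal domain of RPB1 for total RNAPII and a Ser2-RPB1 antibody for the phosphorylated form. The protocol text names only histone antibodies.

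ATR is the kinase activated by single-stranded DNA at replication forks. It signals through the kinase CHK1 to hold back CDK activity, late origin firing and entry into mitosis, and in S phase it restrains the gene programme that FOXM1 and CDK1 drive in G2. RPB1 is the largest subunit of RNAPII, and its C-terminal repeats gain phosphorylation at Ser2 as polymerase elongates through a gene, so a total RNAPII antibody reads all bound polymerase and a Ser2 antibody mainly reads the elongating form.

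Occupancy was given as RPM, the reads over the span of a gene for every 1000000 reads of the library. The 22 h libraries held 23928707 reads (total, ATRi), 18787183 (total, DMSO), 62368915 (Ser2, ATRi) and 30838523 (Ser2, DMSO), and the median gene held 673, 372, 1254 and 549 reads in the same order. A total of 11972 nuclear genes had a mean of at least 1 RPM over these 4 libraries. The median gene was 0.50 higher on the log2 scale in ATRi than in DMSO for total RNAPII and 0.16 higher for Ser2. The corresponding shifts for total RNAPII were 0.05 (16 h) and -0.03 (19 h), and for Ser2 0.06 at either hour. The fraction of each library that lay in nuclear genes of the table moved with it, at 57.4% (ATRi) against 42.8% (DMSO) for total RNAPII and 44.3% (ATRi) against 40.0% (DMSO) for Ser2. With no spike-in or input used here, a gain over all genes and a more efficient immunoprecipitation cannot be told apart. Ratios below are therefore log2 ATRi/DMSO on the log2(RPM + 0.5) scale after centring each pair on its median gene, unless the deposited scale is named. Each SE beside a ratio covers counting error only, since there is no replicate.

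Of 14 fibroblast identity genes, the table listed 12, all but S100A4 and TWIST1. In total RNAPII the 12 summed to 2000 RPM (ATRi) and 993 RPM (DMSO), and in Ser2 to 1148 RPM (ATRi) and 965 RPM (DMSO). In the total ATRi library their densities were 1.16 to 27.3 RPM per kb, against a median of 0.864 RPM per kb over all genes tested. The table listed 3 of 16 keratinocyte markers (DSP, KRT14 and KRT15), 2 of 18 endothelial and blood markers (TEK and VWF), 1 of 8 melanocyte markers (MITF) and 0 of 15 silent tissue-specific genes. In the same library the listed markers of those other cell types lay between 0.099 and 0.79 RPM per kb, all below that median.

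The sequences below are promoters from RefSeq (GRCh38.p14), 250 bases before to 50 bases after the gene start, each 300 bases. They are shown for the 3 mitotic genes that were called higher in both antibodies (a log2 ratio above 0.32), CDC20 (chr1:43358731-43359030, plus strand), PTTG1 (chr5:160421605-160421904, plus strand) and CCNA2 (chr4:121823834-121824133, minus strand). The last is SERPINB2 (chr18:63887455-63887754, plus strand), at which the median-centred ratios of the antibodies differed in direction. The RefSeq start of SERPINB2 lies inside the longer span that the table lists for it. Capitals mark matches, on either strand, to the CHR element TTTGAA, the AP-1 site TGANTCA and the TATA box TATAAA.
CDC20: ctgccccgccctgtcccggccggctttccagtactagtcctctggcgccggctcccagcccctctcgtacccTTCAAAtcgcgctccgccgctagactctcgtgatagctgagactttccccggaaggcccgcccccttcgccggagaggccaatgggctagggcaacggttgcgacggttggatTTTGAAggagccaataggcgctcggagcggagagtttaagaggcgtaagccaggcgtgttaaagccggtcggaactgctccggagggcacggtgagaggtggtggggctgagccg
PTTG1: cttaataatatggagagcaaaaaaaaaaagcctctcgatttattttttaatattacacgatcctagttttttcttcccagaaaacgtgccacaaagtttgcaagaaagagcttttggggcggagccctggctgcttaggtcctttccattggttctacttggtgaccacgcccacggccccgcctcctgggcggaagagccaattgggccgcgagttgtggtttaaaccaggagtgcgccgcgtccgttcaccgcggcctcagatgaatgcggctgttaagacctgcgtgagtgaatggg
CCNA2: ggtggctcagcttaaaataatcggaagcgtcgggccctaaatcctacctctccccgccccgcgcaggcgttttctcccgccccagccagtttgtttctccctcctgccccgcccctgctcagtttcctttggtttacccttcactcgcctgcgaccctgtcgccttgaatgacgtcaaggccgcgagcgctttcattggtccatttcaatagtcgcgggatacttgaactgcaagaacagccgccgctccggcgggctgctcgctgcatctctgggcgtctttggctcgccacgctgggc
SERPINB2: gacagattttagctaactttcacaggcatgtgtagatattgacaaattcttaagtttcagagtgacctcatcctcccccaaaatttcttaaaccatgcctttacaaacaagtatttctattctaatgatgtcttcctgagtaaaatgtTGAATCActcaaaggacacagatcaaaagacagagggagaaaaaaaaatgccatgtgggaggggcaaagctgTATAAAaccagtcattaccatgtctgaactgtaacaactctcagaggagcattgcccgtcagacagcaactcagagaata

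The CDC20 promoter held 2 CHR matches, at positions -178 and -65 from the gene start. SERPINB2 held an AP-1 match at -102 and a TATA match at -30. No match to these letters lay in the PTTG1 or CCNA2 window.

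With both antibodies, genes differed between ATRi and DMSO in the same direction more often than not at 22 h. Across the 11972 genes the centred total and Ser2 ratios had Pearson's r of 0.61 and Spearman's rho of 0.62, and 73.4% of genes had the same sign. This correlation is across genes, which are not replicates. The total ratios were the wider, with an SD of 0.37 over genes against 0.19 for Ser2. The same r was 0.50 at 16 h and 0.12 at 19 h. In 3 groups of genes by mean level, r was 0.52 for genes of 1.01 to 14.7 RPM, 0.62 for 14.7 to 35.9 RPM and 0.71 for 35.9 to 878 RPM.

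Genes were called higher or lower where the log2 ratio passed 0.32 or -0.32, with no test, and total RNAPII was higher at 1961 genes (16.4%) and lower at 2469 (20.6%). Ser2 was higher at 497 genes (4.15%) and lower at 594 (4.96%). In both antibodies 146 genes were higher (1.22%) and 449 were lower (3.75%), while 16 genes were higher in total and lower in Ser2 (0.134%) and 9 were higher in Ser2 and lower in total (0.0752%). The counting intervals at 95% excluded 0 in both antibodies for 137 of the 146 and 412 of the 449. On the deposited scale the split turned over, with 2221 genes higher in both (18.6%) and 32 lower in both (0.267%).

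**Figure D1:**
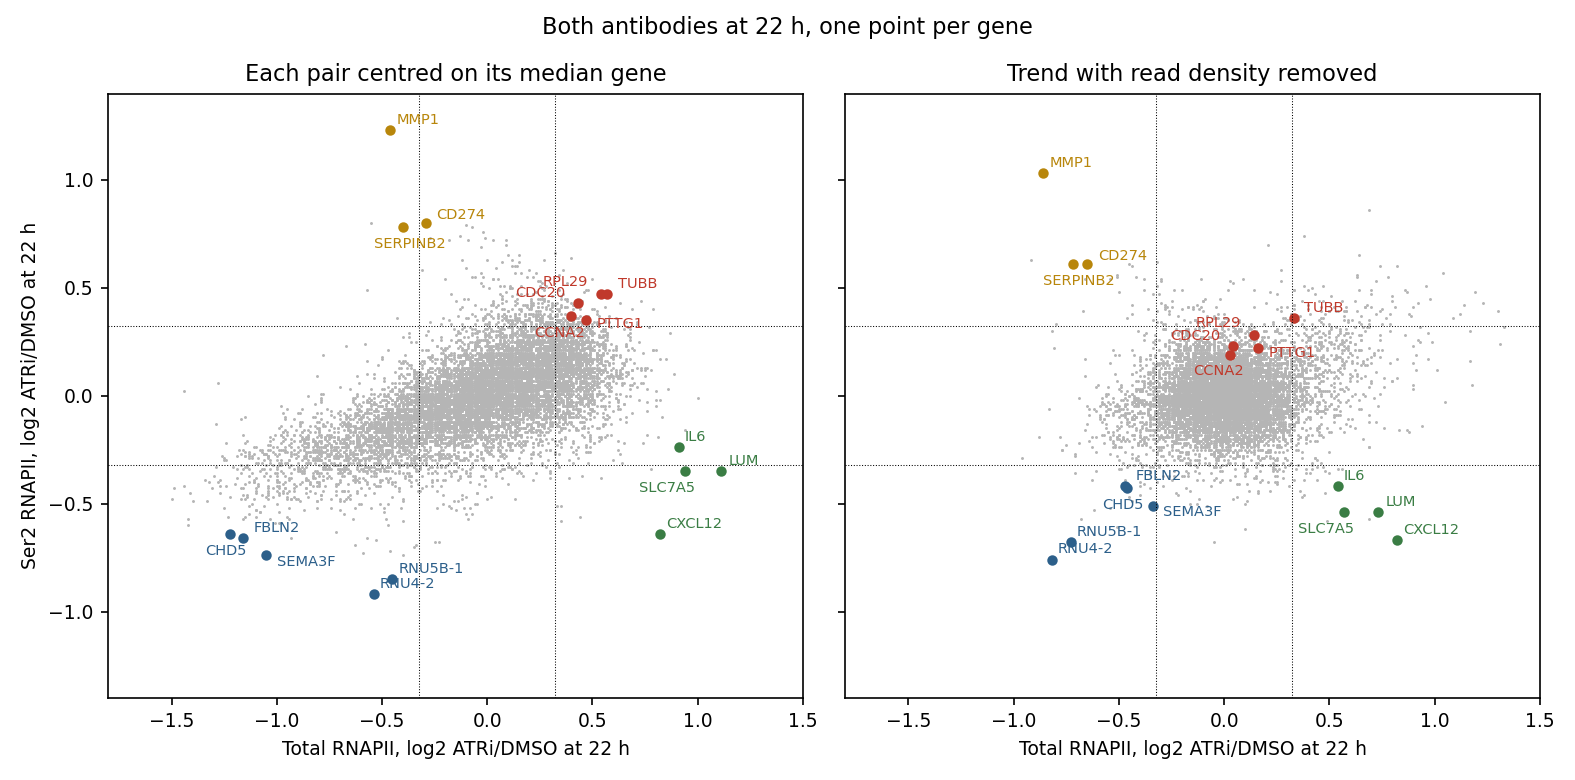
Each grey point is 1 of the 10500 tested genes that could be named, placed by its total RNAPII ratio (x axis) and Ser2 ratio (y axis), log2 ATRi/DMSO at 22 h; dotted lines mark the calling thresholds of 0.32 and -0.32. On the left, with each pair centred on its median gene, the points run along a rising diagonal (r 0.61 over all 11972 genes tested), and on the right, with the trend against read density removed, the diagonal is mostly gone (r 0.17) while MMP1, LUM, RNU4-2 and their neighbours stay at the edges.

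Much of that shared direction followed how densely a gene was covered. Genes were put in deciles by RPM per kb in the 14 h library of the same antibody, which lies outside the contrast. For total RNAPII the median centred ratio at 22 h climbed from -0.61 in the lowest decile to 0.40 in the highest. In the lowest decile 75.1% of genes were called lower, and in the highest 68.8% were called higher. For Ser2 the medians ran from -0.25 to 0.18. The 16 h pairs sloped the same way, with the lowest and highest deciles at -0.08 and 0.10 in total RNAPII and at -0.04 and 0.22 in Ser2. In the 19 h pairs these deciles were at 0.07 and -0.09 in total RNAPII, a slope of the other sign, and at -0.03 and 0.02 in Ser2. On the deposited scale the lowest decile at 22 h stood at -0.11 (total) and -0.08 (Ser2), the next at 0.06 and -0.03, and the highest at 0.90 and 0.34.

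Once a smooth trend of each pair's ratio with this density was removed, r between the antibodies at 22 h was 0.17, rho was 0.10 and 52.0% of genes had the same sign. At 16 h r remained 0.45 under the same removal, and at 19 h it was 0.21. Then 108 genes were higher in both (0.902%), 41 lower in both (0.342%), 36 higher in total and lower in Ser2 (0.301%) and 29 the reverse (0.242%). Of the 108 and 41 genes, 7 and 24 were among the genes called on the centred scale. The 341 X-linked genes reacted to the removal as a block, with medians of 0.37 (total) and 0.16 (Ser2) after it, against 0.03 and 0.00 before it. No autosome's median exceeded 0.07 after it, and 75 of the 108 genes were autosomal.

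**Figure D2:**
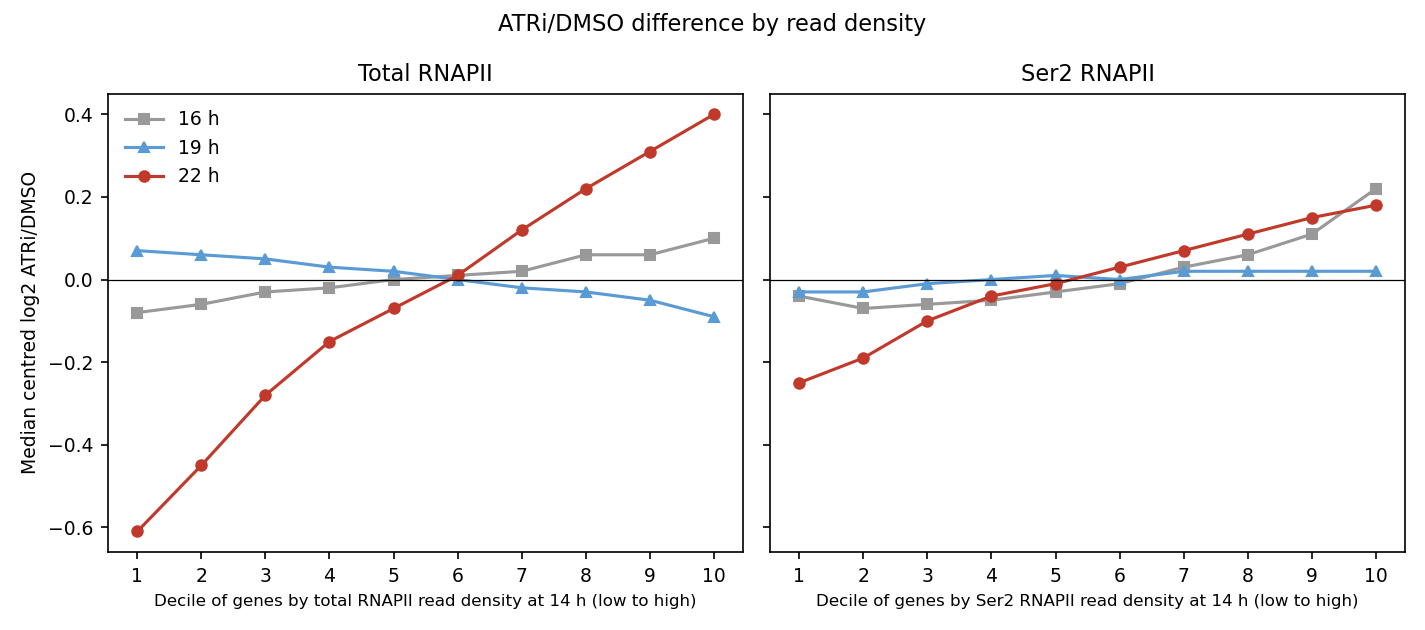
Median centred log2 ATRi/DMSO (y axis) in deciles of genes by read density at 14 h (x axis, low to high) for total RNAPII (left) and Ser2 RNAPII (right), with a line for each of 16, 19 and 22 h. The 22 h line for total RNAPII is the steepest, from -0.61 to 0.40, and the 19 h line slopes the other way, from 0.07 to -0.09.

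Gene length moved with density. In total RNAPII the shortest decile of genes (up to 4660 bp) had a median ratio of 0.32 and the longest (159962 bp and above) -0.43, and with the density trend removed these were 0.00 and -0.10. In Ser2 the same deciles stood at 0.11 and -0.14, and at -0.02 and -0.02 with the trend removed. Genes higher in both antibodies had a median length of 5256 bp and a density of 2.18 RPM per kb in total RNAPII at 14 h. Genes lower in both had 63297 bp and 0.283 RPM per kb, and all genes tested had 32045 bp and 0.605 RPM per kb. Long genes at common fragile sites, which ATR is known to protect from breakage, were among the low-density genes. Of 22 such and other very long genes, 14 were called lower in total RNAPII and 0 higher, and 2 were lower in Ser2. These counts were close to the shares of the longest decile of all genes, of which 61.8% were lower in total RNAPII and 8.93% in Ser2. Their medians were -0.48 (total) and -0.17 (Ser2), -0.15 and -0.04 with the trend removed, and 0.02 and 0.00 on the deposited scale. WWOX, a tumour suppressor gene at a fragile site, had 166 RPM (ATRi) and 226 RPM (DMSO) in total RNAPII and 220 RPM (ATRi) and 258 RPM (DMSO) in Ser2, centred ratios of -0.94 ± 0.03 and -0.39 ± 0.02.

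Among the genes that were highest in both antibodies were the beta-tubulin gene TUBB, the ribosomal protein gene RPL29, the protocadherin gene PCDH18 and CDC20, which activates the anaphase-promoting complex. TUBB had 12.8 RPM (ATRi) and 5.80 RPM (DMSO) in total RNAPII, and 7.62 RPM (ATRi) and 4.73 RPM (DMSO) in Ser2. Its centred ratios were 0.57 ± 0.16 and 0.47 ± 0.14. It stayed above 0.32 in both with the density trend removed, at 0.33 and 0.36. RPL29 had 14.0 RPM (ATRi) and 6.49 RPM (DMSO) in total RNAPII and 7.57 RPM (ATRi) and 4.70 RPM (DMSO) in Ser2, ratios of 0.54 ± 0.15 and 0.47 ± 0.14. PCDH18 had 42.6 RPM (ATRi) and 21.7 RPM (DMSO) in total RNAPII and 30.0 RPM (ATRi) and 19.6 RPM (DMSO) in Ser2, ratios of 0.45 ± 0.08 and 0.44 ± 0.07. PCDH18 had already been higher at 16 h, at 0.42 (total) and 0.27 (Ser2), whereas TUBB and RPL29 stood at -0.10 in total RNAPII at that hour.

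The rest of the 12 genes that the naming rule placed highest in both had smaller-of-both ratios of 0.38 to 0.48. They were P4HB, a protein disulfide isomerase and prolyl hydroxylase subunit that folds collagen, TOMM22, a receptor of the mitochondrial import pore, HNRNPA3, an RNA-binding protein, SLC39A13, a zinc transporter, PPP1R14B, an inhibitor of protein phosphatase 1, NAXE, which repairs damaged NADH and NADPH, the chromatin gene MORF4L2, and SLC75A1. HNRNPA3, the most deeply covered of them, had 74.8 RPM (ATRi) and 36.9 RPM (DMSO) in total RNAPII and 45.4 RPM (ATRi) and 30.6 RPM (DMSO) in Ser2. Its ratios were 0.51 ± 0.06 and 0.40 ± 0.05, against -0.01 and 0.05 at 16 h. With the trend removed, all 12 remained above 0 in both antibodies, but only TUBB stayed past the calling threshold of 0.32. Their ratios then ran from 0.03 (TOMM22) to 0.33 (TUBB) in total RNAPII, and from 0.20 (NAXE and MORF4L2) to 0.36 (TUBB) in Ser2.

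The 12 genes lowest in both were sparsely covered, at 0.122 to 0.400 RPM per kb in total RNAPII at 14 h, close to the 0.2055 RPM per kb that the 2nd percentile of all nuclear genes had in that library. SEMA3F, which encodes a secreted semaphorin, had 5.39 RPM (ATRi) and 8.09 RPM (DMSO) in total RNAPII, and 5.68 RPM (ATRi) and 8.72 RPM (DMSO) in Ser2. Its ratios were -1.05 ± 0.17 and -0.74 ± 0.12. FBLN2, the matrix protein fibulin-2, had 11.7 RPM (ATRi) and 18.7 RPM (DMSO) in total RNAPII and 15.6 RPM (ATRi) and 22.3 RPM (DMSO) in Ser2, ratios of -1.16 ± 0.12 and -0.66 ± 0.07. These genes were lower on the deposited scale too. CCN5, a matricellular protein gene, had 5.31 RPM (ATRi) and 5.59 RPM (DMSO) in total RNAPII and 4.23 RPM (ATRi) and 6.16 RPM (DMSO) in Ser2. The others were CHD5 (a chromatin remodeller), SFRP1 (a Wnt antagonist), FCHO1 (clathrin-mediated endocytosis), GDPD5, ADAMTS14 (a procollagen protease), ELFN2, SMAD6 (an inhibitory SMAD), PDE2A (a cyclic nucleotide phosphodiesterase) and PIK3C2B (a lipid kinase). With the trend removed all 12 stayed below 0 in both antibodies, ADAMTS14 only just in total RNAPII at -0.02. For 5 of them, the mean over the 22 h libraries fell below the filter of 1 RPM once a background density was subtracted, so no ratio was computed on that scale.

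Mitotic and G2/M genes had medians above the median gene in both antibodies, with and without the density trend, while most calls were in total RNAPII. Of 44 measured, 20 were called higher and 0 lower in total RNAPII, where 16.4% of all genes were higher. In Ser2 3 were higher and 0 lower, near the 4.15% of all genes, and the same 3 were the ones higher in both. The medians were 0.30 (total) and 0.14 (Ser2), against 0 for all genes by construction, and 40 and 38 of the 44 were above 0. With the density trend removed the medians were 0.20 and 0.11, with 42 and 36 above 0, and with a background subtracted they were 0.19 and 0.11. The 16 h medians were 0.18 (total) and 0.06 (Ser2), and the 19 h medians 0.02 in either antibody. Summed over the list, total RNAPII reached 2659 RPM (ATRi) against 1529 RPM (DMSO), and Ser2 reached 1677 RPM (ATRi) against 1360 RPM (DMSO).

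CDC20 had 32.8 RPM (ATRi) and 16.9 RPM (DMSO) in total RNAPII, and 20.4 RPM (ATRi) and 13.4 RPM (DMSO) in Ser2, ratios of 0.43 ± 0.10 and 0.43 ± 0.08. PTTG1, which encodes securin, had 20.3 RPM (ATRi) and 10.1 RPM (DMSO) in total RNAPII and 11.1 RPM (ATRi) and 7.59 RPM (DMSO) in Ser2. Its ratios of 0.47 ± 0.12 and 0.35 ± 0.11 compare with -0.17 and -0.01 at 16 h. CCNA2, cyclin A2, had 34.5 RPM (ATRi) and 18.2 RPM (DMSO) in total RNAPII and 20.8 RPM (ATRi) and 14.2 RPM (DMSO) in Ser2, ratios of 0.40 ± 0.09 and 0.37 ± 0.08. ANLN, anillin, a scaffold of the cytokinetic ring, was the deepest, with 223 RPM (ATRi) and 108 RPM (DMSO) in total RNAPII and 125 RPM (ATRi) and 98.1 RPM (DMSO) in Ser2. Its ratios were 0.53 ± 0.04 and 0.19 ± 0.03. With the density trend removed, the ratios were 0.04 (total) and 0.23 (Ser2) for CDC20 and 0.16 and 0.22 for PTTG1. They were 0.03 and 0.19 for CCNA2, and 0.27 and 0.05 for ANLN. All of these were above 0, but none passed the calling threshold in either antibody.

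The promoters of this list were searched for motifs, which describes the members of the list and not a difference between ATRi and DMSO. Of the 38 mitotic genes with a RefSeq promoter, 25 (65.8%) held TTTGAA, against 9.58% of the 8589 promoters of tested genes. CCAAT, the box bound by NF-Y, lay in 30 of 38 (78.9%), against 36.7% of all. Within the list the CHR match did not separate the median ratios. The 25 genes with it had median ratios of 0.30 (total) and 0.15 (Ser2), and the 13 without it 0.31 and 0.13. The counts above 0 were 24 (total) and 25 (Ser2) of the 25, and 11 and 9 of the 13. In total RNAPII 12 of the 25 and 5 of the 13 were called higher. These differences were not tested. Among the 96 promoters of genes higher in both antibodies, 4 (4.17%) held TTTGAA, below the share of all promoters.

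The genes of G1/S and DNA replication had a median above the median gene in total RNAPII and at it in Ser2. Of 45 measured, 11 were higher and 1 lower in total RNAPII, against 16.4% and 20.6% of all genes. In Ser2 1 was higher and 0 lower, against 4.15% and 4.96% of all genes. The medians of this list were 0.20 (total) and 0.00 (Ser2), and -0.02 and -0.10 with the density trend removed, where the direction in total RNAPII turned. With a background subtracted they were 0.16 and -0.02. E2F7, a repressor among the E2F factors, was the 1 past the fold in Ser2. It had 141 RPM (ATRi) and 88.4 RPM (DMSO) in total RNAPII and 103 RPM (ATRi) and 66.2 RPM (DMSO) in Ser2, ratios of 0.16 ± 0.04 and 0.47 ± 0.04. MCM7, a helicase subunit, was at 0.45 ± 0.08 and 0.30 ± 0.07. Of the 17 measured genes of the ATR and CHK1 pathway, 4 were higher and 2 lower in total RNAPII, against 16.4% and 20.6% of all genes. In Ser2 0 passed, against 4.15% higher and 4.96% lower over all genes. ATR itself had 62.4 RPM (ATRi) and 56.1 RPM (DMSO) in total RNAPII and 59.8 RPM (ATRi) and 53.2 RPM (DMSO) in Ser2. CHEK1, which encodes CHK1, had 59.1 RPM (ATRi) and 38.6 RPM (DMSO) in total RNAPII and 42.6 RPM (ATRi) and 31.7 RPM (DMSO) in Ser2, ratios of 0.10 ± 0.07 and 0.26 ± 0.05. The inhibitor acts on the kinase and not on its gene, so these values do not check the treatment.

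DNA repair genes sat at the median gene, at -0.05 (total) and 0.01 (Ser2) over 28. Among 23 p53 targets 9 were higher and 3 lower in total RNAPII, and 1 higher and 2 lower in Ser2, with medians of 0.16 and 0.01. Over all genes 16.4% were higher and 20.6% lower in total RNAPII, and 4.15% and 4.96% in Ser2. CDKN1A, the CDK inhibitor p21, had 46.9 RPM (ATRi) and 29.5 RPM (DMSO) in total RNAPII and 28.5 RPM (ATRi) and 19.4 RPM (DMSO) in Ser2. Its ratios at 22 h, 0.15 ± 0.07 and 0.38 ± 0.07, were below those at 16 h, 0.53 and 0.71.

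**Figure D3:**
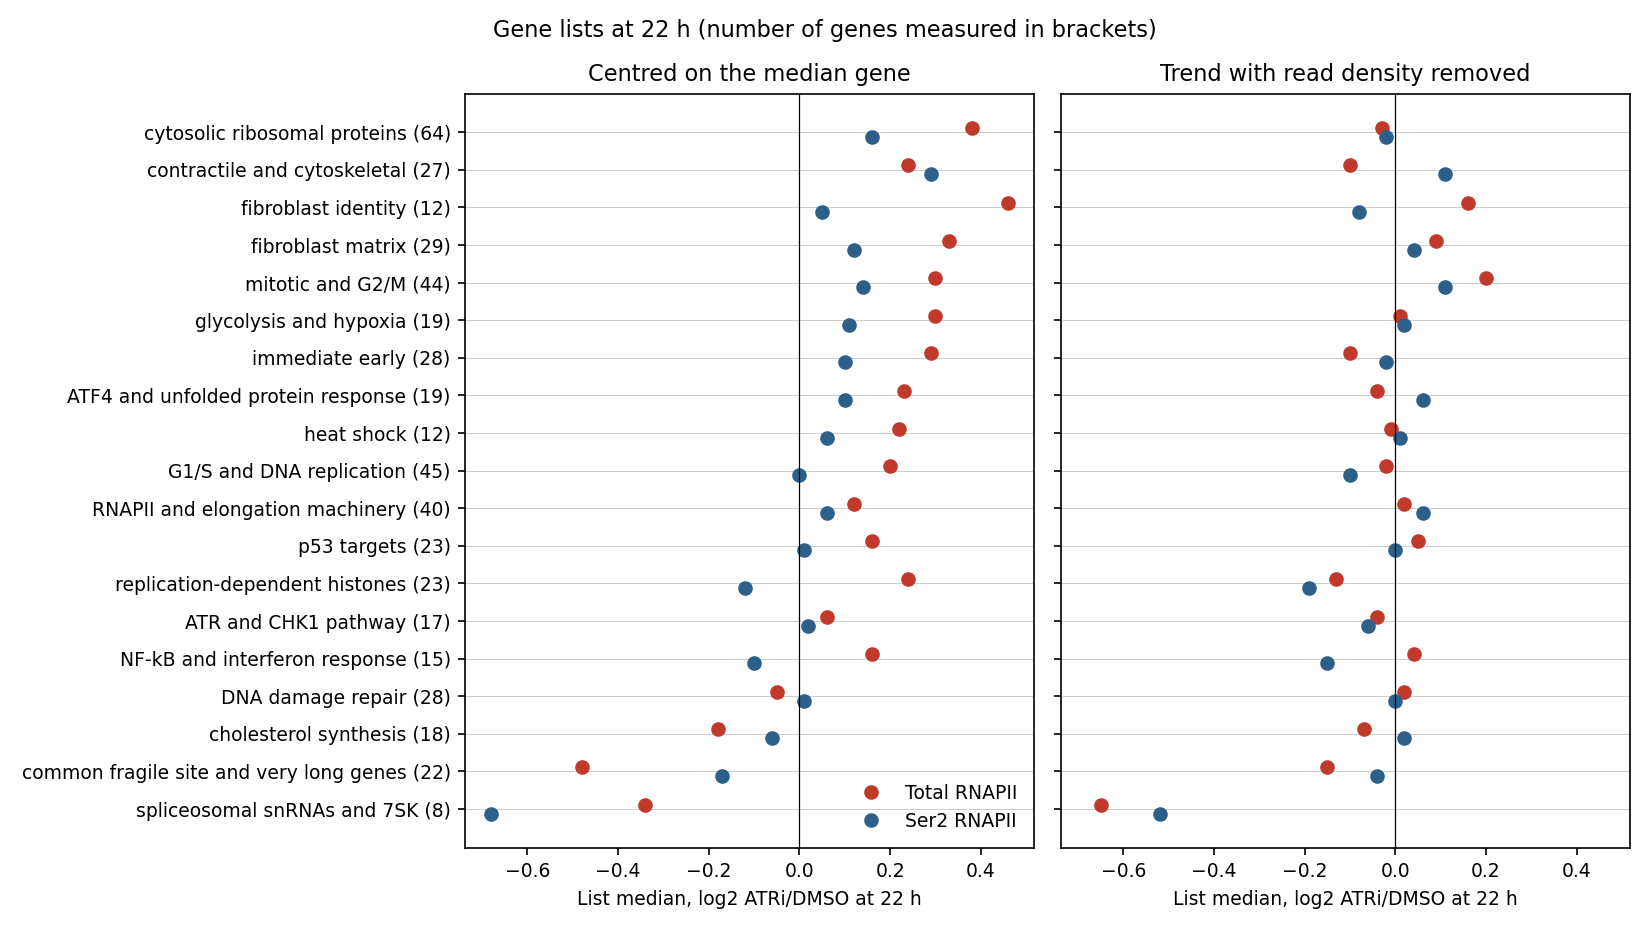
Median log2 ATRi/DMSO at 22 h (x axis) of each gene list with at least 5 measured genes, with total RNAPII and Ser2 RNAPII as separate points, centred on the median gene (left) and with the density trend removed (right). The mitotic list stays above 0 in both antibodies on both sides, the ribosomal protein list moves to about 0 on the right, and the snRNA list is the lowest on the right.

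Ribosomal protein genes, which are short and densely covered, showed the density trend and little beyond it. Of 64 measured, 48 were higher in total RNAPII and 5 in Ser2, against 16.4% and 4.15% of all genes, with 0 lower in either. Their medians of 0.38 and 0.16 became -0.03 and -0.02 with the trend removed. Glycolysis and hypoxia genes behaved alike, with medians of 0.30 and 0.11 over 19 genes, and of 0.01 and 0.02 with the trend removed. Replication-dependent histone genes split by antibody on the centred scale. Of 23 measured, 8 were higher and 0 lower in total RNAPII, and 0 were higher and 4 lower in Ser2. The shares over all genes were 16.4% higher and 20.6% lower in total RNAPII, and 4.15% and 4.96% in Ser2. The histone list had medians of 0.24 (total) and -0.12 (Ser2), the Ser2 median being 0.04 on the deposited scale. Its medians were 0.19 (total) and 0.31 (Ser2) at 16 h, and -0.25 and -0.11 at 19 h. The total median turned to -0.13 with the trend removed and -0.03 with a background subtracted, with -0.19 and -0.25 for Ser2. The linker histone gene H1-2 had 55.0 RPM (ATRi) and 41.4 RPM (DMSO) in total RNAPII and 23.3 RPM (ATRi) and 30.5 RPM (DMSO) in Ser2, ratios of -0.10 ± 0.07 and -0.55 ± 0.06. It held 1317 (ATRi) and 778 (DMSO) reads in total RNAPII and 1453 (ATRi) and 941 (DMSO) in Ser2. The ATRi libraries held 23928707 (total) and 62368915 (Ser2) reads, and the DMSO libraries 18787183 and 30838523. Within each antibody the H1-2 count was thus higher in the deeper library. Whether depth bears on the histone ratios was not tested.

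Spliceosomal snRNA genes, most of which RNAPII transcribes as short units with no introns or poly(A) tail, had medians below the median gene in both antibodies. The measured members were the U4 genes RNU4-1 and RNU4-2, the U5 genes RNU5A-1, RNU5B-1 and RNU5E-1, the U1 variant RNVU1-7, and RNU4ATAC and RNU6ATAC of the minor spliceosome. Of these 8 genes, 5 were called lower in total RNAPII and 7 in Ser2, against 20.6% and 4.96% of all genes, with 0 higher and 4 lower in both. The medians were -0.34 (total) and -0.68 (Ser2), and -0.65 and -0.52 with the density trend removed. On the deposited scale the Ser2 median stayed below 0, at -0.52, while that of total RNAPII was 0.16. RNU4-2, a U4 snRNA gene (chr12:120291763-120291903, minus strand, hg38), had 23.6 RPM (ATRi) and 24.2 RPM (DMSO) in total RNAPII, and 8.99 RPM (ATRi) and 15.6 RPM (DMSO) in Ser2. Its ratios were -0.54 ± 0.09 and -0.92 ± 0.09, and the Ser2 ratio was the lowest among the genes with a symbol. RNU5B-1, a U5 snRNA gene, had 21.4 RPM (ATRi) and 20.5 RPM (DMSO) in total RNAPII and 8.24 RPM (ATRi) and 13.6 RPM (DMSO) in Ser2, ratios of -0.45 ± 0.10 and -0.85 ± 0.10. On the deposited scale 1 of the 8 genes, RNU6ATAC at 0.13, was above 0 in Ser2, and 7 were above 0 in total RNAPII. Summed over the list, total RNAPII reached 142.7 RPM (ATRi) and 125.6 RPM (DMSO), and Ser2 55.8 RPM (ATRi) and 83.2 RPM (DMSO).

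The direction at these genes differed between hours, and so did the relative depth of the libraries. At 16 h the ATRi library was the shallower, with 19273038 against 26482785 reads (total) and 19539110 against 38269525 (Ser2). At 19 h it was the deeper, with 46533646 against 35871568 (total) and 36316086 against 30193468 (Ser2), as it was at 22 h. Hour and depth therefore cannot be told apart here. The 16 h list medians were 0.34 (total) and 0.43 (Ser2), and the 19 h medians -0.32 and -0.23. For RNU4-2, the ratios net of the density trend were 0.07 (total) and 0.01 (Ser2) at 16 h and -0.02 (total) and -0.09 (Ser2) at 19 h, against -0.82 and -0.76 for the 22 h pairs.

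The 22 h difference was set against those of 16 h and 19 h in 1 limma fit of all 12 ATRi and DMSO libraries, blocked on antibody and hour, with Benjamini-Hochberg adjustment over all genes. Antibodies and hours stand in for replicates there, so its p-values measure only the spread between these libraries. With centred pairs the fit called 0 genes higher and 0 lower (0.0% each) at an adjusted p of 0.05. At an unadjusted p under 0.05 limma had 988 higher and 1848 lower, and edgeR on the recovered reads called 0 and 0 after adjustment, with 1072 and 1757 before it. After removal of the density trend, limma called 0 higher and 9 lower (0.0752%). Every span among the 9 holds a RefSeq small RNA gene of the U class, a feature looked up after the call and only for these spans. The share of all tested spans that hold such a gene was not counted. They were RNU4-2, RNU5B-1, the span of RNU12 (the U12 snRNA of the minor spliceosome), WDR74, whose span holds the U2 gene RNU2-2, and the 5 spans of SNORD3A, SNORD3B-1, SNORD3B-2, SNORD3C and SNORD3D, which encode U3, the snoRNA of pre-rRNA processing.

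Among these 9 spans RNU4-2 departed most, by -0.78 ± 0.10 (limma, adjusted p = 0.00741), and the span of SNORD3A (chr17:19188016-19188714, plus strand, hg38) by -0.76 ± 0.08 (limma, adjusted p = 0.00741). SNORD3A had 61.7 RPM (ATRi) and 58.7 RPM (DMSO) in total RNAPII and 23.4 RPM (ATRi) and 37.7 RPM (DMSO) in Ser2 at 22 h. RNU12 had 51.9 RPM (ATRi) and 43.8 RPM (DMSO) in total RNAPII and 19.9 RPM (ATRi) and 25.9 RPM (DMSO) in Ser2, and WDR74 had 112 RPM (ATRi) and 84.3 RPM (DMSO) in total RNAPII and 39.0 RPM (ATRi) and 48.3 RPM (DMSO) in Ser2. All 9 were thus lower in ATRi in Ser2 on the deposited scale, whereas in total RNAPII only RNU4-2 was, at -0.03. RNU4-2 held 565 (ATRi) and 454 (DMSO) reads in total RNAPII and 561 (ATRi) and 481 (DMSO) in Ser2. SNORD3A held 1476 (total) and 1458 (Ser2) reads in ATRi. In DMSO it held 1103 (total) and 1163 (Ser2) reads. The Ser2 ATRi library had 62368915 reads, against 30838523 in Ser2 DMSO and 23928707 in total ATRi. Within each antibody the counts of RNU4-2 and SNORD3A were higher in ATRi, the deeper library of the pair. Whether depth bears on the lower Ser2 RPM was not tested. The spans lie at 9.41 to 191 RPM per kb in total RNAPII at 14 h, at the top of the density range where few genes anchor the trend, the near-identical U3 copies may share reads, and the RNU4-2 span also overlaps SIRT4. On the centred scale, adjusted p was 0.109 for RNU4-2 and 0.116 for SNORD3A (limma).

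**Figure D4:**
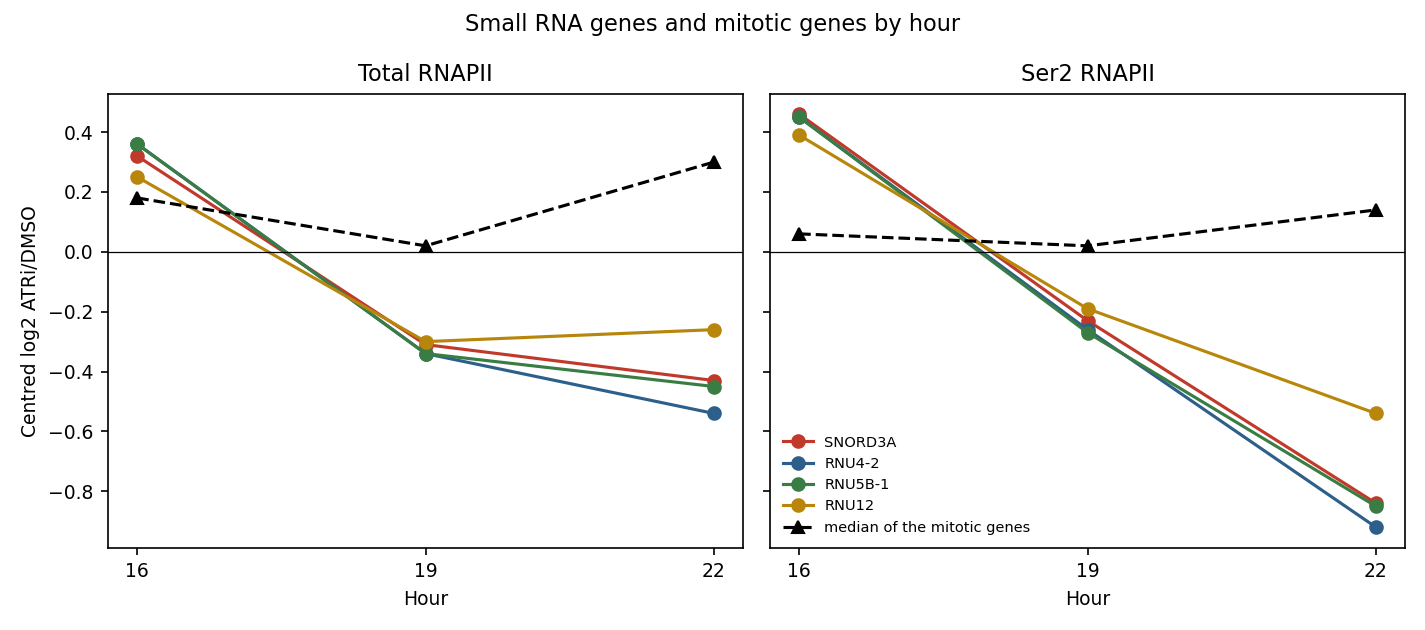
Centred log2 ATRi/DMSO (y axis) at 16, 19 and 22 h (x axis) of 4 small RNA loci, with the median of the 44 mitotic genes as a dashed line, for total RNAPII (left) and Ser2 RNAPII (right). The 4 loci lie above 0 at 16 h and below 0 at 19 h and 22 h, reaching -0.92 for RNU4-2 in Ser2, while the mitotic median is above 0 at each hour.

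At a few genes the antibodies differed in direction on the centred scale. MMP1, interstitial collagenase (chr11:102789920-102798160, minus strand, hg38), had 33.3 RPM (ATRi) and 32.3 RPM (DMSO) in total RNAPII, but 40.5 RPM (ATRi) and 15.2 RPM (DMSO) in Ser2. Total RNAPII was thus level on the deposited scale and Ser2 was well above its DMSO value. The centred ratios were -0.46 ± 0.08 and 1.23 ± 0.07. The Ser2 ratio was the highest among the genes with a symbol. SERPINB2, plasminogen activator inhibitor type 2, had 51.7 RPM (ATRi) and 48.1 RPM (DMSO) in total RNAPII and 54.4 RPM (ATRi) and 28.1 RPM (DMSO) in Ser2, ratios of -0.40 ± 0.06 and 0.78 ± 0.05. CD274, the immune checkpoint ligand PD-L1, had 58.8 RPM (ATRi) and 50.6 RPM (DMSO) in total RNAPII and 59.4 RPM (ATRi) and 30.3 RPM (DMSO) in Ser2, ratios of -0.29 ± 0.06 and 0.80 ± 0.05. The total ratio of CD274 did not pass the calling threshold of -0.32. On the deposited scale both antibodies were above 0, at 0.10 (total) and 0.94 (Ser2) for SERPINB2 and 0.22 and 0.96 for CD274. PTGS2, the prostaglandin synthase COX-2, leaned the same way, with ratios of 0.03 ± 0.07 and 0.72 ± 0.06. The fourth gene that the rule named here, the pseudogene RPLP0P2, was below 0 in both antibodies, at -1.49 ± 0.16 and -0.43 ± 0.11.

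At 16 h the centred ratios were 0.09 (total) and -0.17 (Ser2) for MMP1, 0.22 and 0.10 for SERPINB2, 0.03 and -0.10 for CD274 and 0.11 and -0.13 for PTGS2. With the density trend removed the Ser2 ratios at that hour were -0.38 for MMP1 and PTGS2, -0.26 for CD274 and -0.04 for SERPINB2, all 4 below 0. At 19 h the centred ratios of the 4 genes lay between -0.12 and 0.00 in both antibodies. The occupancy of MMP1, SERPINB2 and CD274 was highest at 19 h in both treatments. MMP1 then had 84.3 RPM (ATRi) and 88.8 RPM (DMSO) in total RNAPII and 70.2 RPM (ATRi) and 71.1 RPM (DMSO) in Ser2. At 22 h the Ser2 signal of these 3 genes in ATRi lay between the 19 h level and that of DMSO at 22 h. This order was not particular to them, since CDC20, TUBB and PCDH18 showed it in Ser2 too. CDC20 had 25.4 RPM (ATRi) and 21.6 RPM (DMSO) in Ser2 at 19 h, and 20.4 RPM and 13.4 RPM at 22 h. The 19 h libraries held 63.5% to 72.0% of their reads in nuclear genes, against 40.0% to 57.4% at 22 h.

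The opposite split was seen at LUM, CXCL12, SLC7A5 and IL6. LUM, the matrix proteoglycan lumican (chr12:91102629-91111831, minus strand, hg38), had 33.7 RPM (ATRi) and 10.7 RPM (DMSO) in total RNAPII, and 13 RPM (ATRi) and 14.9 RPM (DMSO) in Ser2, ratios of 1.11 ± 0.11 and -0.35 ± 0.08. CXCL12, a stromal chemokine, had 23.4 RPM (ATRi) and 9.05 RPM (DMSO) in total RNAPII and 9.86 RPM (ATRi) and 13.9 RPM (DMSO) in Ser2, ratios of 0.82 ± 0.13 and -0.64 ± 0.09. SLC7A5, the large neutral amino acid transporter, had 164 RPM (ATRi) and 60.1 RPM (DMSO) in total RNAPII and 69.7 RPM (ATRi) and 79.5 RPM (DMSO) in Ser2, ratios of 0.94 ± 0.05 and -0.35 ± 0.04. IL6, an inflammatory cytokine, had 44.7 RPM (ATRi) and 16.5 RPM (DMSO) in total RNAPII and 18.3 RPM (ATRi) and 19.3 RPM (DMSO) in Ser2, ratios of 0.91 ± 0.09 and -0.24 ± 0.07. All 4 were higher in total and lower in Ser2 on the deposited scale as well, and with the density trend removed.

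The wider set of 16 genes higher in total and lower in Ser2 also held HES1, ID1 and ATOH8, which encode helix-loop-helix regulators, and SMAD3, BTG2, ISCU, TMEM119 and LY6K. These were picked out after their values were seen. HES1 had ratios of 0.78 (total) and -0.34 (Ser2) and SMAD3, a mediator of TGF-beta signalling, of 0.54 and -0.38. Of the 16 genes, 11 kept both calls with the density trend removed, as did 7 of the 9 genes of the reverse class. A limma test of the antibody difference in the 22 h departure, added after these values were seen, called 0 genes in either direction (1027 and 522 at an unadjusted p under 0.05). The lowest adjusted p was 0.358, and MMP1 was among the genes with it. With the density trend removed the same limma test called 0 genes, and its lowest adjusted p, 0.0588, was that of MMP1, SERPINB2 and CD274. Their 22 h ratios were then -0.86, -0.72 and -0.65 in total RNAPII and 1.03, 0.61 and 0.61 in Ser2.

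**Figure D5:**
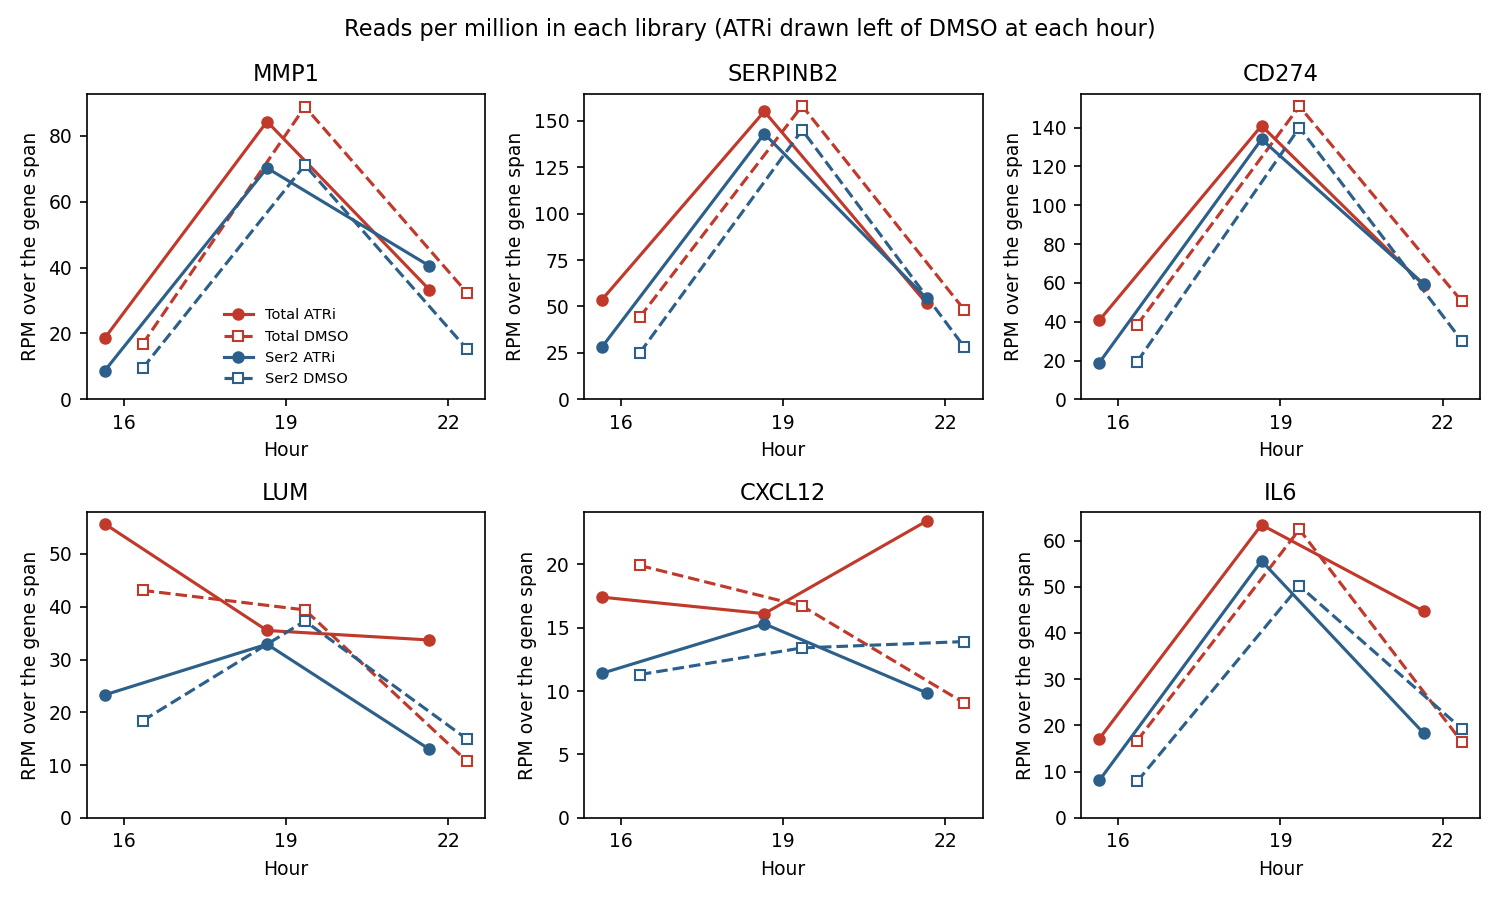
RPM over the gene span (y axis, from 0) of 6 genes at 16, 19 and 22 h (x axis), with ATRi (filled) drawn left of DMSO (open) at each hour, for total and Ser2 RNAPII. At 22 h the Ser2 value of MMP1, SERPINB2 and CD274 is higher in ATRi than in DMSO while total RNAPII is nearly level, and for LUM, CXCL12 and IL6 the total value is higher in ATRi while Ser2 is not.

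Fibroblast identity and matrix genes had medians above 0 in both antibodies, and the medians were further from 0 in total RNAPII, whose ratios were the wider over all genes too. The 12 identity genes had medians of 0.46 in total RNAPII, with 9 higher and 0 lower, and of 0.05 in Ser2, with 1 higher (PDGFRA) and 1 lower (LUM). With the density trend removed these were 0.16 and -0.08, and with a background subtracted 0.35 and -0.03. COL1A2, a chain of type I collagen, had 517 RPM (ATRi) and 219 RPM (DMSO) in total RNAPII and 265 RPM (ATRi) and 226 RPM (DMSO) in Ser2, ratios of 0.73 ± 0.03 and 0.06 ± 0.02. Of 29 matrix genes, 15 were higher and 3 lower in total RNAPII, and 1 was higher and 3 lower in Ser2, with medians of 0.33 and 0.12. For comparison with both lists, 16.4% of all genes were higher and 20.6% lower in total RNAPII, and 4.15% and 4.96% in Ser2. FN1, fibronectin, had 653 RPM (ATRi) and 290 RPM (DMSO) in total RNAPII and 363 RPM (ATRi) and 280 RPM (DMSO) in Ser2, ratios of 0.67 ± 0.02 and 0.21 ± 0.02. ELN, elastin, stood out against them, at -0.53 ± 0.13 and -0.67 ± 0.09, though its total ratio was 0.12 with the density trend removed.

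Contractile and cytoskeletal genes were called higher as often in Ser2 as in total RNAPII. Of 27 measured, 9 were higher and 2 lower in total RNAPII, and 9 were higher and 1 lower in Ser2, with medians of 0.24 and 0.29. Net of the density trend the medians were -0.10 (total) and 0.11 (Ser2). TPM4, a tropomyosin, had 274 RPM (ATRi) and 160 RPM (DMSO) in total RNAPII and 192 RPM (ATRi) and 122 RPM (DMSO) in Ser2, ratios of 0.27 ± 0.03 and 0.49 ± 0.03. Of 28 immediate early genes, 13 were higher and 1 lower in total RNAPII and 9 higher and 0 lower in Ser2, yet 0 were higher in both. For comparison with both lists, 16.4% of all genes were higher and 20.6% lower in total RNAPII, and 4.15% and 4.96% in Ser2. The share higher in both antibodies was 1.22% over all genes. KLF10 was at 0.70 ± 0.09 (total) and 0.06 ± 0.08 (Ser2), whereas SPRY2 and DUSP5, feedback inhibitors of ERK signalling, were at 0.12 ± 0.13 and 0.13 ± 0.07 in total RNAPII and at 0.63 ± 0.11 and 0.57 ± 0.06 in Ser2. The list medians, 0.29 and 0.10, were -0.10 and -0.02 with the trend removed.

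In the stress lists the chaperone gene HSPA5 (BiP) and the transcription factor gene XBP1 leaned to Ser2 as well. HSPA5 had 37.9 RPM (ATRi) and 22.5 RPM (DMSO) in total RNAPII and 24.0 RPM (ATRi) and 15.1 RPM (DMSO) in Ser2, ratios of 0.23 ± 0.08 and 0.48 ± 0.08, and XBP1 had ratios of 0.25 ± 0.08 and 0.39 ± 0.07. The medians of the 19 ATF4 and unfolded protein response genes were 0.23 and 0.10, and -0.04 and 0.06 with the trend removed. Of 18 cholesterol synthesis genes 1 was higher and 5 were lower in total RNAPII, near the 20.6% of all genes called lower. Their medians were -0.18 (total) and -0.06 (Ser2), 0.32 and 0.10 on the deposited scale, and -0.07 and 0.02 with the trend removed. The RNAPII subunit and elongation factor genes stayed near the median gene, at 0.12 and 0.06 over 40, and POLR2A, which encodes RPB1, had ratios of 0.11 ± 0.06 and -0.02 ± 0.05.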

How the data were processed

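The libraries are RNAPII ChIP-seq from BJ hTERT cells. The authors deposited a table of RPM over the gene span, not divided by length, for 12425 genes. Per the submitters' processing notes, Bowtie2 2.3.3.1, SAMtools 1.4 and hg38 were used. The counting tool, annotation and treatment of duplicates are not given in the sources used here. Values were whole multiples of a step in each column (100.0% of values, tolerance 0.01 reads), which gave back whole reads. For the Ser2 ATRi library of 22 h the smallest value was taken as 2 reads. Depth was 17181179 to 62368915 reads a library, and 3 reads, the floor for counting error only, came to 0.048 to 0.16 RPM at 22 h. Counting intervals do not cover other error, since reads are not independent molecules.

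Gene symbols came from position against RefSeq (GRCh38.p14), by a Jaccard index of at least 0.8, or 0.5 with an end within 100 bp, and named 10743 genes (86.5%). The 14 mitochondrial genes were left out. Genes needed a mean of at least 1 RPM at 22 h, and ratios used a pseudocount of 0.5 RPM, which understates changes of low genes. A call is a ratio past 1.25-fold, with no test, as there is 1 library a group. The 22 h departure was fitted with limma 3.58.1 in R 4.3.3 (eBayes with trend, two-sided), and with edgeR 4.0.16 on the recovered reads. Nothing says that same-hour libraries of both antibodies came from separate cultures. The density trend was removed with a lowess of span 0.3. The background was the 2nd percentile of RPM per kb. The fits were tested on simulated data.

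Named genes had a symbol, at least 100 reads in each 22 h library and under 10% of their span shared. They were the 12 highest and 12 lowest in both antibodies, 4 per direction where the antibodies differed, 4 per list by mean ratio (no read or overlap minimum), genes past the limma threshold, and ATR, CHEK1, POLR2A and CDKN1A. The 9 small RNA spans and the wider set where antibodies differed were named after their values were seen. The members and lists were chosen with earlier results of these data known. Alternatives were other pseudocounts, filters, scalings, folds, hours and antibodies.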

Additional observations from a re-analysis of the deposited data

Results flagged for a closer look

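The snRNA list moved in opposite directions at 22 h and 16 h in both antibodies. Its medians were -0.34 (total) and -0.68 (Ser2) at 22 h, against 0.34 and 0.43 at 16 h, a change of -0.90 in the mean of both antibodies on the log2 scale. In both antibodies the ATRi library was the deeper of its pair at 22 h and the shallower at 16 h, so hour and depth cannot be told apart. The difference between the hours was not tested for the list. For single genes the limma fit of the report bears on it: with the density trend removed RNU4-2 and RNU5B-1 passed its threshold, and with centred pairs they did not.

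The cytosolic ribosomal protein list moved the other way, with medians of 0.38 (total) and 0.16 (Ser2) at 22 h against -0.27 and -0.18 at 16 h, a change of 0.49. This difference was not tested either. With the density trend removed the 22 h medians were -0.03 and -0.02.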

How the results depend on the processing

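On the deposited scale 2221 genes were higher and 32 lower in both antibodies. With the density trend removed 41 were lower in both, and with a background subtracted 939. At 1.5-fold 0 were higher and 11 lower. The correlation r was 0.17 with the density trend removed (0.12 over autosomes alone, an alternative chosen after seeing the data) and 0.49 with a background subtracted. Other pseudocounts, filters and the removal of overlapping genes left these counts within 1.5 times and r between 0.59 and 0.63. The limma fit called 701 higher and 12 lower on the deposited scale, 0 and 9 with the trend removed, 10 and 34 with a background subtracted, 251 and 925 in total RNAPII alone and 9 and 0 in Ser2 alone. It called 0 and 0 without 16 h and without 19 h. With the trend removed, a choice made after seeing the data, it called 185 and 117 in total alone and 13 and 4 in Ser2 alone. The antibody difference, also added later, gave 14 genes higher and 0 lower in Ser2 with a background subtracted. Lists on the same side of 0 in both antibodies numbered 16, and 11 with the trend removed. Signs turned for ELN (0.12), POLR2L (-0.01) and MANF (-0.02) in total RNAPII with the trend removed, and for RNU5B-1 (0.06), RNU5E-1 (0.11) and RNU5A-1 (0.16) on the deposited scale. The cause of these changes was not tested. No paired analysis was possible because each group holds 1 library, if pairs are to share a replicate number. The limma fit did pair ATRi with DMSO within antibody and hour. The median counting SE of a gene's ratio was 0.09 (total) and 0.07 (Ser2), and the interval excluded 0 for 58.1% and 42.3% of genes, so for the remaining genes a difference was not detectable at this depth.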
